A study of Mus musculus with 4 samples.

Results

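The genes described here are 8 metabolic genes of the mouse testis, Aldh1a1, Aldh2, Fabp3, Ephx1, Fads2, Akr1cl, Ugp2 and Ass1, listed in capitals in the count tables, out of 25824 gene symbols in all. They were selected on the contrast between genotypes, because counts summed per mouse were higher in Ctcf-cKO than in WT testes, so that their differences between genotypes are given below as a description without a test. Testes of 2 WT and 2 Ctcf-cKO mice were dissociated, the cells were isolated in ddSEQ droplets, and 3′ RNA libraries were sequenced, 1 per mouse. During dissociation, the methods mention a pooling of filtrates from 2 tubes for the Ctcf-cKO mouse alone. The labels give the strain C56BL/6J and an age of 15 weeks for every mouse, the genotype Ctcf wt/wt for WT and Stra8-iCre-Ctcf f/Δ for Ctcf-cKO. The methods describe the WT mice as littermates that could be f/f, wt/f or wt/wt for Ctcf, and give a range of ages with that of the labels as its upper end. The Stra8 promoter drives the recombinase in germ cells, not in the somatic cells of the testis, and the genotype joins 1 floxed allele with 1 deleted allele. The labels number the WT mice 1 and 2 and the Ctcf-cKO mice 1 and 3, and each mouse is 1 replicate.

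Leydig cells lie between the seminiferous tubules and make testosterone from cholesterol under the control of luteinizing hormone. Besides the steroidogenic enzymes they are rich in enzymes that handle lipids, retinoids and reactive aldehydes. ALDH1A1 oxidizes retinal to retinoic acid, and ALDH2 is the mitochondrial enzyme that clears acetaldehyde and other short aldehydes. FABP3 carries fatty acids through the cytosol, and FADS2 is a desaturase of polyunsaturated fatty acid synthesis. EPHX1 hydrolyses epoxides in the endoplasmic reticulum, and AKR1CL belongs to the aldo-keto reductases, which reduce carbonyl groups of steroids and other substrates. UGP2 makes UDP-glucose for glycogen and glycoconjugates, and ASS1 joins citrulline and aspartate in the urea cycle and in the synthesis of arginine.

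Total counts were 6701235 for WT replicate 1, 4859455 for WT replicate 2, 2652665 for Ctcf-cKO replicate 1 and 1593546 for Ctcf-cKO replicate 3, and every list of 4 values keeps this sequence of mice. Ctcf had 110, 49, 4 and 7 counts, or 16.4, 10.1, 1.51 and 4.39 CPM, the count per 1000000 counts of the same sum. In the germ-like cells described below it had 8.33, 9.91, 0 and 24.7 CPM, on few counts. The lower level was therefore not seen there in both Ctcf-cKO mice. Of 24403 barcodes, 811 reached the limits for a cell, which were 96, 241, 228 and 246 per mouse. Barcodes with fewer than 200 genes detected numbered 1367, 4392, 5592 and 6114, and they held 1.57, 12.1, 40.8 and 46.9% of the counts. The same barcode sequence occurred in more than 1 library for 2716 of 20198 distinct barcodes, but for 1 of 810 among the cells. Between 84.4 and 90.3% of the values above 0 were 1 to 4, and the value 5 was far rarer than 4 in each table, so intervals from Poisson counting, which cover counting error only, may be too narrow. No label names a batch.

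Clusters were named from marker lists, with the 8 genes left out of the clustering. Of 11 clusters, those of 74 and 29 cells were Leydig-like, with 13 and 15 of 15 Leydig markers higher than in the other cells. No Leydig marker was among the 10 leading genes of the larger cluster. Leydig-like cells numbered 6, 0, 50 and 47, which is 6.25, 0, 21.9 and 19.1% of the cells. No cell of WT replicate 2 was Leydig-like, so genotypes could not be tested within this class. Germ-like cells, which were the spermatocyte-like and round spermatid-like clusters, numbered 20, 170, 53 and 24. A cluster of 141 cells, called the haemoglobin-led cluster here, had 15 of 16 elongating spermatid markers higher but was led by HBB-BT, HBB-BS and HBA-A1. It was left unnamed and held 54, 16, 60 and 11 cells. Unnamed clusters of 117 and 76 cells held 2, 0, 10 and 105 cells and 10, 37, 21 and 8 cells.

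The genes lie on 6 chromosomes of GRCm38. Aldh1a1 (chr19:20492715-20643465, forward strand, up to 16 exons) and Fads2 (chr19:10062765-10101746, reverse, up to 12 exons) share chromosome 19. Akr1cl (chr1:65012689-65032759, up to 10 exons) and Ephx1 (chr1:180976210-181020904, up to 9 exons) are both on the reverse strand of chromosome 1. Fabp3 (chr4:130308595-130315463, up to 4 exons) and Ass1 (chr2:31470207-31520672, up to 16 exons) run forward. Aldh2 (chr5:121566027-121593824, up to 13 exons) and Ugp2 (chr11:21321138-21371201, up to 10 exons) run in reverse. Aldh1a1 has a near copy, Aldh1a7 (chr19:20692953-20727562). Its longest transcript was 89.3% identical to that of Aldh1a1 over 2040 aligned bases and 83.3% over the last 300 of these. The Aldh1a1 transcript has 2358 bases, so this window need not be the end that 3′ libraries sample. Counting could have split reads between them, so the level of ALDH1A1 is uncertain to that extent. ALDH1A7 had 37, 13, 104 and 56 counts against 1117, 344, 3680 and 2064 of ALDH1A1. Genes on the opposite strand overlap Aldh1a1, Aldh2, Fabp3, Akr1cl and Ugp2, and the sources used here do not say whether strand was used in counting.

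The promoters of the 8 genes were searched for shared short motifs, since the genes had been grouped by a common difference between genotypes. The RefSeq table of GRCm38.p6 promoters held 9 starts of 7 of the genes, and Aldh2 was not among them. In the 250 bases before the start, on both strands, the binding sequence of the Leydig cell factor NR5A1 in its form CAAGGTCA was in 0 of the 9, against 1.33% of all 32851 promoters. The CTCF core motif was also in 0 of the 9, against 0.508% of all. A GC box, GGGCGG, was in 4 of the 9 (Ass1, Fads2 and both starts of Ugp2), against 32.7% of all. The letters of a TATA box, TATAAA, were in 1, that of Ephx1, against 12.4% of all. No set distance from the start was required of any match. The stretches around the first match in each of these genes follow, 5′ to 3′ on the strand of the gene, with the match in capitals, since they hold the letters that were found. Ugp2, which had the smallest log2 fold change of the 8, shared the GC box with Ass1 and Fads2, there on the opposite strand.
Ephx1, chr1:181017732-181017819, reverse strand: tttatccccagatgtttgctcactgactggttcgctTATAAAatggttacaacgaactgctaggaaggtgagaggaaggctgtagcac
Ass1, chr2:31470161-31470258, forward strand: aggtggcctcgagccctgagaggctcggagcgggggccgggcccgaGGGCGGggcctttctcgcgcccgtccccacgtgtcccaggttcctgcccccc
Fads2, chr19:10101638-10101735, reverse strand: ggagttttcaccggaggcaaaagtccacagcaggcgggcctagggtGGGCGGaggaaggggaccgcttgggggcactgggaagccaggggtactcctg
Ugp2, chr11:21371292-21371389, reverse strand: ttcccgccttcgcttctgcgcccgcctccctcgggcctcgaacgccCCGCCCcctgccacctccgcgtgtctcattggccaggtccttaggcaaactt
The matches begin 214, 63, 186 and 76 bases before the annotated starts, in the order shown.

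In Leydig-like cells, 7 of the 8 genes were abundant in each of the 3 mice that had such cells, and UGP2 was not. Levels are given as CPM of the sum, with exact 95% Poisson intervals in the plot of levels. ALDH1A1 reached 8312 CPM in the 6 cells of WT replicate 1, and 5088 and 4750 CPM in Ctcf-cKO replicates 1 and 3. ALDH2 stood at 1234, 1528 and 1568 CPM in the same mice. Among the lipid genes, FABP3 stood at 4318, 3969 and 3478 CPM and FADS2 at 1527, 2095 and 1866 CPM. The single WT mouse was therefore the highest for ALDH1A1 and FABP3 and the lowest for ALDH2 and FADS2.

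EPHX1 stood at 3760, 1838 and 1461 CPM in these cells, and AKR1CL at 3143, 2747 and 2549 CPM. ASS1 had 852, 500 and 576 CPM, so all 3 of these genes were highest in the WT mouse. UGP2 had 58.7, 45.8 and 120 CPM, which rests on 2, 13 and 19 counts. Over the 8 genes the mean of the Ctcf-cKO mice was 0.439 to 1.41 times the value of WT replicate 1, and no gene had both Ctcf-cKO mice above 2 WT mice, since there was only 1. Most Leydig-like cells of WT replicate 1, 4 of 6, belonged to the cluster of 29 cells, while 33 of 50 and 39 of 47 of the Ctcf-cKO mice belonged to that of 74 cells. In the cluster of 29 cells alone the Ctcf-cKO mean was 0.955 to 4.28 times that of WT replicate 1, and in the cluster of 74 cells alone it was 0.185 to 0.474 times. The Ctcf-cKO mean was the higher in the first cluster and the lower in the second for 7 genes and the lower in both for EPHX1, and no order of genotypes can be read from 6 WT cells.

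The 29-cell cluster, which had all 15 Leydig markers higher, also held the higher levels of the Ctcf-cKO mice. ALDH1A1 stood at 9608 and 11596 CPM there in Ctcf-cKO replicates 1 and 3, against 2356 and 2322 CPM in the cluster of 74 cells. FABP3 stood at 8206 and 7296 CPM against 1407 and 2125 CPM, and AKR1CL at 5523 and 5629 CPM against 1068 and 1456 CPM. Both clusters therefore carried the genes, at levels several times apart. Cells not named Leydig-like carried them as well. In the Ctcf-cKO mice the unnamed cluster of 117 cells had 1282 to 2015 CPM of ALDH1A1 and 746 to 1520 CPM of FABP3. Macrophage-like cells had 591 to 1255 and 671 to 683 CPM, and peritubular and fibroblast-like cells 347 to 1036 and 730 to 833 CPM. Counts of elongating spermatid markers were in Leydig-like cells too, at 8723 CPM in WT replicate 1 and 86885 and 86466 CPM in the Ctcf-cKO mice, and the 15 Leydig markers summed to 55835, 37019 and 28978 CPM. The part of these germ cell counts in the lower levels of the Ctcf-cKO mice was not tested.

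**Figure D1:**
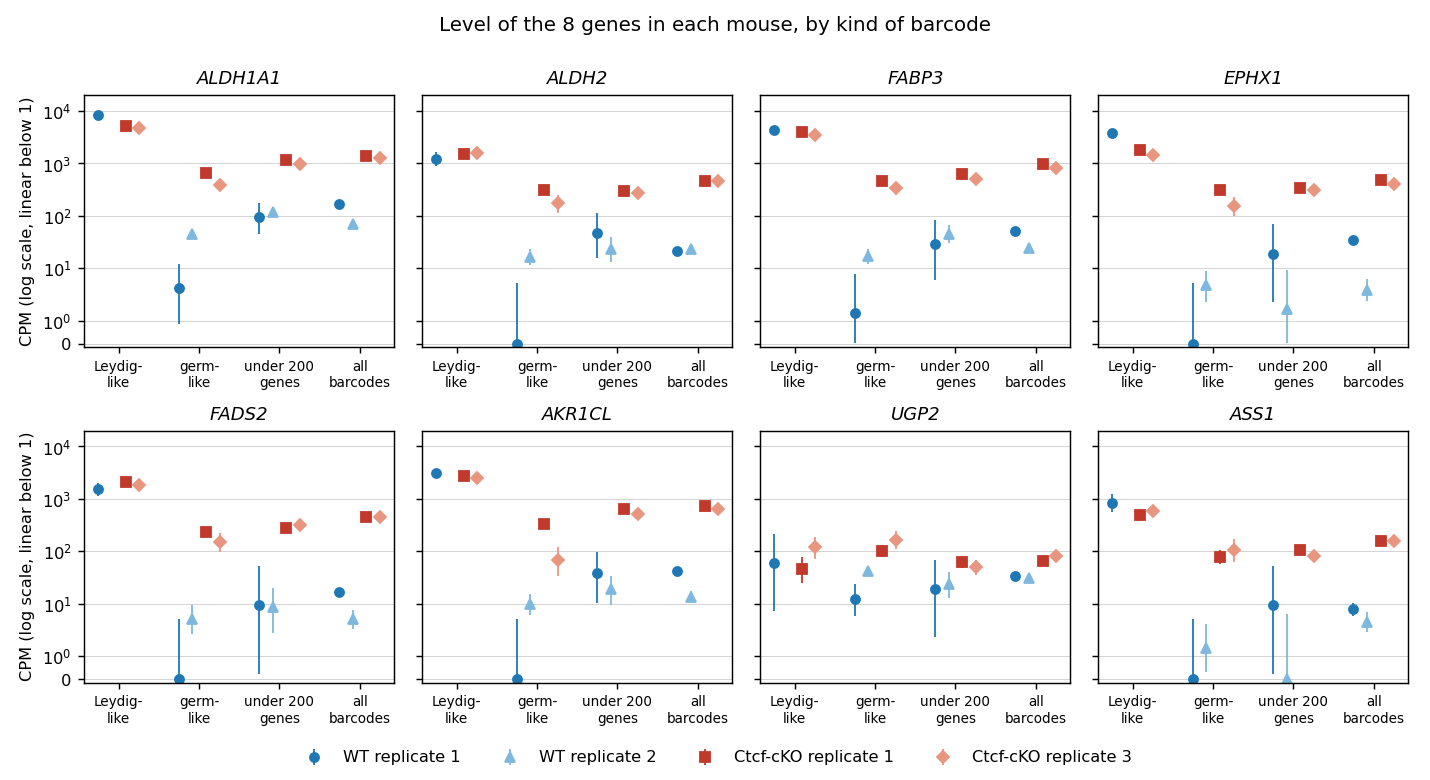
Level of each gene in CPM (log axis, linear below 1) in Leydig-like cells, germ-like cells, barcodes under 200 genes and all barcodes, 1 point per mouse with exact 95% Poisson intervals; WT replicate 2 had no Leydig-like cell. In Leydig-like cells ALDH1A1 lies between 4750 and 8312 CPM, and in all barcodes the Ctcf-cKO mice lie at 1387 and 1295 CPM above the WT mice at 167 and 70.8 CPM, while UGP2 is 58.7, 45.8 and 120 CPM in Leydig-like cells against 12.5, 103 and 167 CPM in germ-like cells of the same 3 mice.

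Across all barcodes, each of the 8 genes was higher in both Ctcf-cKO mice than in both WT mice, which is the property by which they were chosen. Of 14552 genes tested in these sums, 32.3% had both Ctcf-cKO mice above both WT mice. ALDH1A1 had 167, 70.8, 1387 and 1295 CPM, a log2 fold change of 3.57 ± 0.31 (SE). ALDH2 had 21.2, 23.7, 464 and 464 CPM (4.44 ± 0.22). The 2 mice of a genotype lay close together for ALDH2 and the WT mice lay further apart for ALDH1A1.

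FABP3 had 51.2, 24.5, 967 and 804 CPM, a log2 fold change of 4.61 ± 0.30. FADS2 had 16.7, 5.14, 458 and 460 CPM, the largest log2 fold change of the 8 at 5.42 ± 0.39. For both lipid genes the genotypes did not overlap, and WT replicate 1, the WT mouse with Leydig-like cells, was the higher WT mouse. EPHX1 had 34.9, 3.91, 488 and 404 CPM (4.56 ± 0.60), where the WT mice differed most, and the log2 fold change was 6.82 without WT replicate 1 and 3.74 without WT replicate 2. AKR1CL had 42.7, 13.4, 735 and 628 CPM (4.66 ± 0.40). ASS1 had 7.91, 4.53, 153 and 156 CPM (4.67 ± 0.31). UGP2 had 33.7, 31.3, 65.2 and 81.0 CPM, with the smallest log2 fold change of the 8 at 1.23 ± 0.28.

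Leydig markers and those of other somatic cells moved in the same sums. Of the 15 Leydig markers 14 were higher in Ctcf-cKO by edgeR's quasi-likelihood test at an adjusted p of 0.05, and so were 14 of 15 macrophage markers, 13 of 13 Sertoli markers, 9 of 9 peritubular and fibroblast markers and 4 of 4 erythrocyte markers tested. Of all 14552 genes 18.4% were called higher and 28.5% higher or lower. Of 18 spermatocyte markers 8 were lower, and of 18 round spermatid markers 14 were lower. Of the other lists 1 of 4 endothelial, 3 of 6 spermatogonial and 1 of 16 elongating spermatid markers were higher. Without Ctcf-cKO replicate 1 the counts were 9 macrophage markers higher and 0 spermatocyte and 7 round spermatid markers lower, without Ctcf-cKO replicate 3 they were 10, 2 and 3, and DESeq2 called 5 macrophage markers higher. The elongating spermatid markers called were mostly lower without WT replicate 1 and all higher without WT replicate 2, so no direction is read from them. PTGDS, a prostaglandin D synthase and the most counted of the Leydig markers, had 197, 102, 3848 and 3067 CPM (log2 fold change 4.60 ± 0.28, adjusted p = 1.3e-06). AGT, angiotensinogen, had 125, 51.0, 1347 and 1127 CPM (3.88 ± 0.33, adjusted p = 8.93e-06), and CYP17A1, which makes androgens from progestins, had 57.6, 2.26, 861 and 706 CPM (4.77 ± 0.79, adjusted p = 0.00111). In sums over all barcodes, CPM is a share of all the RNA counted. More Leydig cells, more RNA of these genes per Leydig cell and less RNA of other cells cannot be told apart there.

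In the 3 mice with Leydig-like cells, a large part of the counts of 7 genes came from these few barcodes. Leydig-like cells held 25.3 to 54.7% of their counts in WT replicate 1, 34.9 to 49.0% in Ctcf-cKO replicate 1 and 33.6 to 42.9% in Ctcf-cKO replicate 3. The same cells held 0.508, 10.7 and 9.92% of all counts. In WT replicate 1, 765 of the 1117 counts of ALDH1A1 lay in 4140 barcodes of 200 genes or more that were not cells. UGP2 differed, with 0.885, 7.51 and 14.7% of its counts in Leydig-like cells of the same mice. Barcodes under 200 genes held 24.2 to 37.7% of the counts of the 7 genes in the Ctcf-cKO mice, and 28.7 to 38.2% of those of UGP2. Of all counts of these 2 mice they held 40.8 and 46.9%. In WT replicate 2, without Leydig-like cells, germ-like cells held 13.6 to 58.6% of the counts of the 8 genes. Among them were 52.6% of the 19 counts of EPHX1 and 27.3% of the 344 counts of ALDH1A1. Of all counts of that mouse, germ-like cells held 43.6%.

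**Figure D2:**
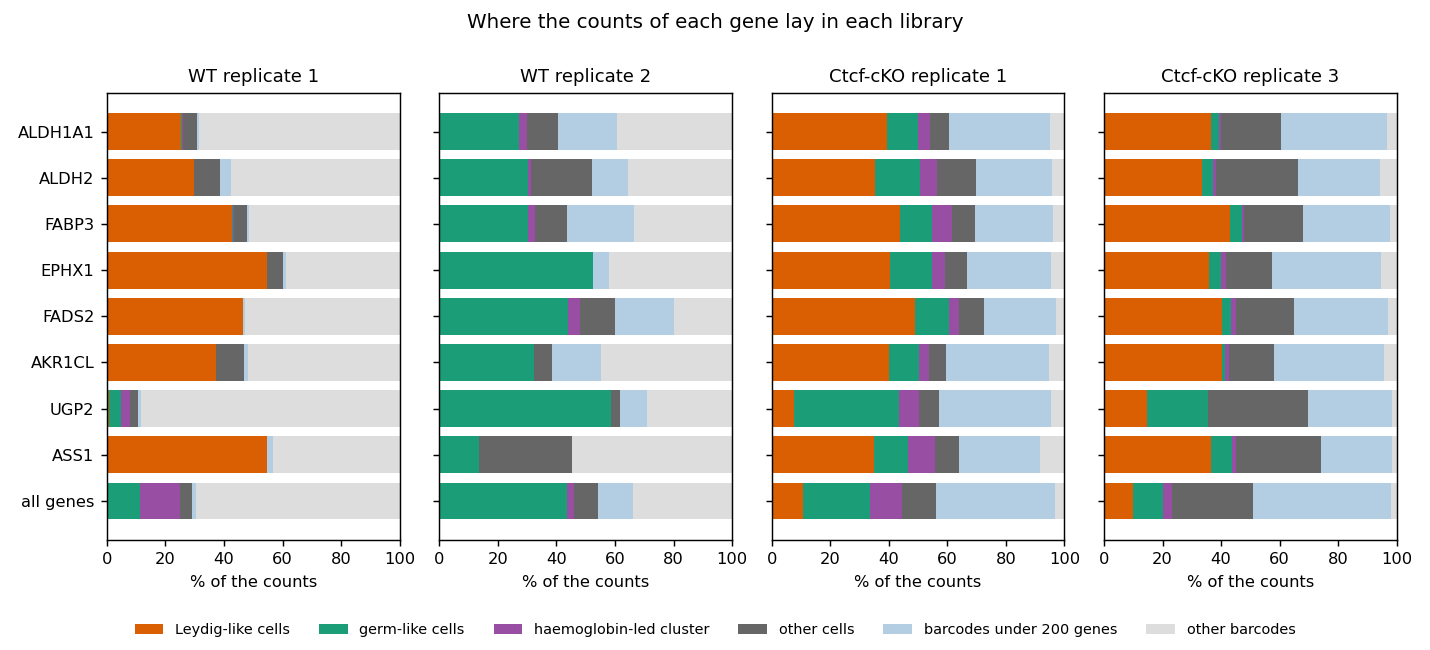
Share of the counts of each gene, and of all genes together, in % of the library, that lay in Leydig-like cells, germ-like cells, the haemoglobin-led cluster, other cells, barcodes under 200 genes and other barcodes (200 genes or more but not a cell), 1 panel per mouse. Leydig-like cells hold 34.9 to 49.0% of the counts of 7 genes in Ctcf-cKO replicate 1, against 7.51% for UGP2.

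In germ-like cells the levels were lower than in Leydig-like cells of the same mouse for 7 genes, but they were higher in both Ctcf-cKO mice than in both WT mice for all 8, again the property that chose them. Of 7729 genes tested there, 18.8% had both Ctcf-cKO mice above both WT mice. ALDH1A1 had 3, 94, 390 and 62 counts, which is 4.16, 44.3, 647 and 383 CPM (log2 fold change 4.20 ± 0.87). ALDH2 had 0, 35, 190 and 28 counts, or 0, 16.5, 315 and 173 CPM (4.55 ± 0.97), and the count of 0 allows up to 4.16 CPM. Retinal and aldehyde oxidation genes were therefore counted in germ-like barcodes of both Ctcf-cKO mice and of WT replicate 2, and hardly in those of WT replicate 1.

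FABP3 had 1.39, 17.0, 461 and 333 CPM in germ-like cells (5.12 ± 0.80), and FADS2 had 0, 5.19, 230 and 148 CPM (5.69 ± 0.85). EPHX1 had 0, 4.72, 312 and 154 CPM (6.12 ± 0.86). AKR1CL had 0, 9.91, 330 and 67.9 CPM (4.99 ± 1.09), and these 2 Ctcf-cKO values, from 199 and 11 counts, lay further apart than those of the other genes. ASS1 had 0, 3, 47 and 17 counts, a ratio of pooled counts of 79.2 with an exact counting interval of 25.9 to 394. UGP2 had 12.5, 42.0, 103 and 167 CPM (2.11 ± 0.67), and was the single gene of the 8 that was higher in germ-like than in Leydig-like cells of both Ctcf-cKO mice. Leydig-like levels of the other 7 were 4.85 to 9.09 times the germ-like levels in Ctcf-cKO replicate 1 and 5.48 to 37.5 times in Ctcf-cKO replicate 3.

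Of germ-like cells 10, 19.4, 71.7 and 33.3% had a count of ALDH1A1, at median depths of 38109, 9573.5, 9463 and 3539.5 counts. After each cell was thinned to 900 counts, with no cell lost, the shares were 5, 5.29, 32.1 and 16.7%. CYP17A1, a steroidogenic enzyme that germ cells should lack, was counted in 5, 1.76, 58.5 and 29.2% of the same cells, and in 0, 0, 34.0 and 20.8% after thinning. In the Ctcf-cKO mice ALDH1A1 had the higher share before thinning and a slightly lower one after it, so no order of the 2 genes is read there. In the WT mice ALDH1A1 had the higher share before and after thinning. The source of these counts in germ-like barcodes was not tested. In Leydig-like cells the thinned shares of ALDH1A1 were 68.0 and 74.5% and those of CYP17A1 64.0 and 72.3% in Ctcf-cKO replicates 1 and 3. In the Ctcf-cKO mice the haemoglobin-led cluster had thinned shares of 33.3 and 36.4% for ALDH1A1, at median depths of 3125 and 2010 counts, and macrophage-like cells had 50.0 and 54.5%.

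The Leydig marker list was at 167, 269, 5766 and 2926 CPM in germ-like cells, with 5, 12, 15 and 14 of its 15 genes above 0, and HSD3B1, HSD17B3 and NR5A1 were at 0 in both WT mice. Sertoli markers summed there to 25, 241, 1694 and 1185 CPM, macrophage markers to 15.3, 127, 403 and 222 CPM, and erythrocyte markers to 0, 8.96, 542 and 241 CPM. Of the single markers 1 of 12 Leydig, 0 of 7 Sertoli, 0 of 6 macrophage and 1 of 3 erythrocyte genes tested were called by edgeR, and DESeq2 called 6 of 14, 1 of 9, 0 of 7 and 2 of 3. Without WT replicate 2, 5 of the 8 genes have 0 WT counts in germ-like cells, and no fold can be given for them. With all 4 mice edgeR called 2 of 7729 genes, or 0.0259%, both higher in Ctcf-cKO: CYP17A1 and the haemoglobin gene HBB-BS, each with an adjusted p of 0.0446, the latter named after its values were seen. An unadjusted p under 0.05 was reached by 513 genes, and DESeq2 called 73. None of the 8 genes was among the 2 calls, and nothing is read from this, since they were chosen on the contrast.

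In barcodes under 200 genes, too shallow to be cells, the 8 genes again had both Ctcf-cKO mice above both WT mice, as did 22.1% of the 7879 genes tested there. This cut takes unlike parts of the libraries, as the median counts of these barcodes were 53, 52, 201.5 and 110. Barcodes of 200 genes or more that were not cells held 69.5, 33.7, 3.07 and 2.14% of all counts. All 8 genes were higher in both Ctcf-cKO mice in those barcodes, again the property that chose them, and the share over all genes was not computed there. The sums there held 4655382, 1639277, 81475 and 34095 counts. In the barcodes under 200 genes the levels were as follows. ALDH1A1 had 95.3, 119, 1176 and 996 CPM (log2 fold change 3.53 ± 0.40) and ALDH2 had 47.6, 23.7, 293 and 278 CPM (3.52 ± 0.44). FABP3 had 28.6, 45.7, 625 and 507 CPM (3.99 ± 0.42). FADS2 had 9.53, 8.47, 277 and 313 CPM (5.26 ± 0.53), and AKR1CL had 38.1, 18.6, 632 and 504 CPM (4.86 ± 0.46). The 2 Ctcf-cKO mice lay close together for each of these genes, while the WT values rest on few counts.

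EPHX1 had 2, 1, 374 and 238 counts in barcodes under 200 genes, a ratio of 77.6 with a counting interval of 26.4 to 377. ASS1 had 1, 0, 112 and 60 counts, a ratio of 65.4 with an interval of 11.6 to 2597. UGP2 had 19.1, 23.7, 61.1 and 49.5 CPM (1.52 ± 0.64). The Leydig marker list was at 438, 418, 5577 and 5626 CPM in the same barcodes, and the erythrocyte list at 47.6, 10.2, 1296 and 1827 CPM. Of 7879 genes tested 6.42% were called and 5.84% were called higher in Ctcf-cKO. Of the 15 Leydig markers 12 were called higher, of 12 Sertoli markers 8 and of 12 macrophage markers 6. Without either Ctcf-cKO mouse these counts were 9 of the Leydig, 5 of the Sertoli and 4 of the macrophage markers. Leydig-like levels of the 7 genes other than UGP2 were 4.33 to 7.58 times those of barcodes under 200 genes in Ctcf-cKO replicate 1 and 4.59 to 7.18 times in Ctcf-cKO replicate 3.

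Set against the Leydig markers of the same barcodes, EPHX1, FABP3, ALDH2 and FADS2 held similar ratios in the Ctcf-cKO mice in the kinds of barcodes compared. These were Leydig-like cells, germ-like cells and barcodes under 200 genes. Per 100 counts of the 15 Leydig markers, ALDH1A1 had 13.7 counts in Leydig-like cells, 11.2 in germ-like cells and 21.1 in barcodes under 200 genes of Ctcf-cKO replicate 1, and 16.4, 13.1 and 17.7 in those of Ctcf-cKO replicate 3. EPHX1 had 4.97, 5.41 and 6.20 counts in the first of these mice and 5.04, 5.27 and 5.65 in the second. FABP3 had 10.7, 7.99 and 11.2 counts in the first and 12.0, 11.4 and 9.0 in the second. Of these 3 genes ALDH1A1 varied most between these kinds of barcodes, and EPHX1 least. Elsewhere in Ctcf-cKO replicates 1 and 3 some ratios lay further off. In the haemoglobin-led cluster FABP3 had 18.1 and 8.62 counts and EPHX1 had 5.60 and 9.48. In cells outside the Leydig-like, germ-like and haemoglobin-led clusters ALDH2 had 10.4 and 9.07 counts.

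ALDH2 had 4.13, 5.46 and 5.26 counts per 100 Leydig marker counts in Ctcf-cKO replicate 1, and 5.41, 5.91 and 4.94 in Ctcf-cKO replicate 3. FADS2 had 5.66, 4.0 and 4.96 counts, and then 6.44, 5.06 and 5.56. AKR1CL was less even, with 7.42, 5.72 and 11.3 counts in the first mouse and 8.80, 2.32 and 8.96 in the second, and so was ASS1 in the second mouse, with 1.99, 3.59 and 1.43. UGP2 did not keep the ratio, with 0.124, 1.78 and 1.09 counts in Ctcf-cKO replicate 1 and 0.415, 5.70 and 0.879 in Ctcf-cKO replicate 3. In WT replicate 1 germ-like cells held 120 Leydig marker counts, none of them of PTGDS, and 5 of the 8 genes were at 0 there. Germ-like cells of WT replicate 2 held 571, with 16.5 counts of ALDH1A1, 6.13 of ALDH2, 6.3 of FABP3 and 1.75 of EPHX1 per 100. In all barcodes ALDH1A1 had 23.6, 20.6, 15.5 and 17.1 counts per 100, and FABP3 had 7.26, 7.14, 10.8 and 10.6. The ratios of EPHX1, FADS2, AKR1CL and ASS1 were also higher in both Ctcf-cKO mice there, that of UGP2 was lower and that of ALDH2 overlapped. These differences were not tested.

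**Figure D3:**
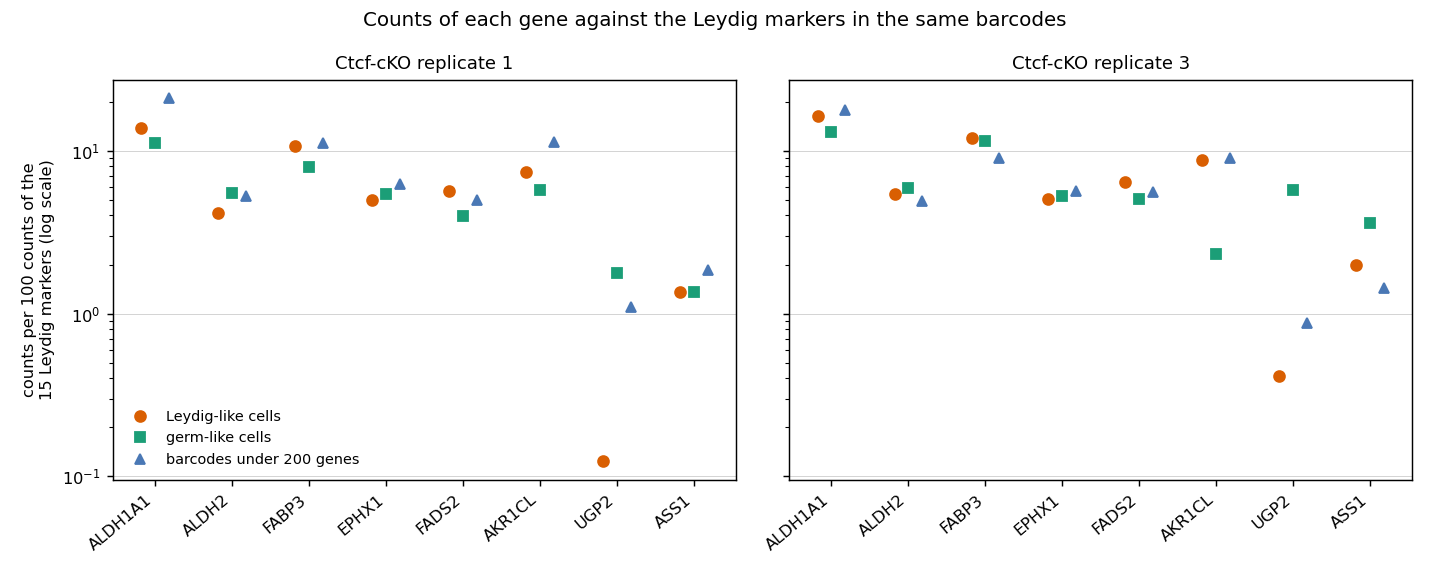
Counts of each gene per 100 counts of the 15 Leydig markers (log axis) in Leydig-like cells, germ-like cells and barcodes under 200 genes of the 2 Ctcf-cKO mice, 1 panel per mouse. The 3 points of EPHX1 lie at 4.97 to 6.20 and at 5.04 to 5.65, while those of UGP2 spread from 0.124 to 1.78 and from 0.415 to 5.70.

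UGP2 also had the lowest correlation with the other genes over the 11 sums of Leydig-like cells, germ-like cells and barcodes under 200 genes per mouse. On the scale of log2(CPM + 1), each of the other 7 genes had a Pearson correlation of 0.963 to 0.992 with the mean profile of the rest, and UGP2 of 0.694, as a description over sums that share libraries and depth. The sums include both genotypes, so the correlations carry the difference by which the genes were chosen. Outside the lists, the genes most like the mean profile were GSTM1, a glutathione S-transferase (0.991), TCEAL9 (0.986), CTSD, the lysosomal protease cathepsin D (0.984), MMD2 (0.984) and CHCHD10, a mitochondrial protein (0.981). Of 10611 genes compared, 194 had a correlation above 0.9. GSTM1 stood at 38418 CPM in Leydig-like cells of WT replicate 1 and at 16962 and 14995 CPM in those of the Ctcf-cKO mice, and at 4.16, 131, 2777 and 1630 CPM in germ-like cells.

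The other genes of the same pathways were tested in all barcodes, with edgeR over all 14552 genes. Of 14 other aldehyde dehydrogenases tested 10 rose in Ctcf-cKO and 0 fell, with a median log2 fold change of 2.68, against -0.04 over all genes, of which 18.4% were called higher and 28.5% in either direction. ALDH1B1, a mitochondrial relative of ALDH2, had 8.36, 0.823, 153 and 131 CPM (log2 fold change 4.94 ± 0.56, adjusted p = 7.3e-05). ALDH4A1, of proline breakdown, had 1.34, 0.412, 19.2 and 20.1 CPM (4.44 ± 0.66, adjusted p = 0.000527). ALDH5A1, of GABA breakdown, had 0, 0, 23 and 25 counts so that the Ctcf-cKO level was at least 43.6-fold higher, taking 3 counts over both WT mice as the floor (adjusted p = 0.00077).

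Of 6 other binding proteins tested 3 rose and 1 fell. Among those that rose were FABP5, a fatty acid binding protein, with 0.597, 1.44, 10.9 and 11.3 CPM (3.51 ± 0.79, adjusted p = 0.00666), and DBI, an acyl-CoA binding protein, with 33.7, 31.9, 190 and 176 CPM (2.55 ± 0.23, adjusted p = 1.24e-05). FABP12, which fell by 0.76 ± 0.25 on the log2 scale (adjusted p = 0.0381), was named after its value was seen. Their median was 1.15. Of 15 other genes of desaturation and elongation 8 rose and 2 fell, with a median of 2.22. FADS1, the desaturase that acts after FADS2, had 7.61, 4.12, 162 and 176 CPM (4.88 ± 0.32, adjusted p = 1.58e-06). ACSBG1, an acyl-CoA synthetase, had 46.9, 15.6, 548 and 471 CPM (4.09 ± 0.38, adjusted p = 1.71e-05), and SCD1, a stearoyl-CoA desaturase, had 3.73, 2.26, 47.1 and 36.4 CPM (3.84 ± 0.44, adjusted p = 7.45e-05). The 2 that fell, named after their values were seen, were ELOVL2, a fatty acid elongase, with 113, 110, 47.5 and 30.7 CPM, and ACSL6, an acyl-CoA synthetase, with 109, 88.9, 26.8 and 55.9 CPM.

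Of 2 other epoxide hydrolases tested 1 rose, EPHX2 (4.48 ± 1.07, adjusted p = 0.00927), and their median was 1.97. Of 7 other aldo-keto reductases 5 rose, with a median of 2.84. AKR1B8 had 9.25, 19.3, 148 and 165 CPM (3.52 ± 0.34, adjusted p = 2.61e-05), AKR1B10 had 4.03, 0.823, 18.1 and 28.9 CPM (3.26 ± 0.64, adjusted p = 0.0032) and AKR1C13 had 1.94, 1.65, 20.4 and 7.53 CPM (3.03 ± 0.69, adjusted p = 0.00703). Near copies within this family could share reads. Of 12 other genes of UDP-glucose and glycogen 6 rose, with a median of 2.35, among them the glycogen phosphorylases PYGB (4.55 ± 1.16, adjusted p = 0.0125) and PYGL (4.28 ± 0.98, adjusted p = 0.00713) and the phosphoglucomutase PGM1 (3.68 ± 0.68, adjusted p = 0.0022).

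Of 5 other genes of the urea cycle and arginine 3 rose, with a median of 2.51. GATM, which starts creatine synthesis from arginine, had 19.1, 22.0, 170 and 170 CPM (3.11 ± 0.25, adjusted p = 5.21e-06), and OAT, ornithine aminotransferase, had 14.9, 13, 83.3 and 68.4 CPM (2.51 ± 0.30, adjusted p = 0.000117). ASL, the enzyme after ASS1, had 3, 0, 28 and 8 counts, a ratio of 32.7 with a counting interval of 10.3 to 166 (adjusted p = 0.00719). Without Ctcf-cKO replicate 1, the calls of higher genes dropped from 6 to 2 for UDP-glucose and glycogen, from 5 to 3 for the aldo-keto reductases and from 1 to 0 for the epoxide hydrolases, with 2 to 7 left in each of the other lists. The Leydig, Sertoli, macrophage and erythrocyte markers given above moved with these genes, and their part in the changes was not tested.

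In germ-like cells 0 of 27 other pathway genes tested passed edgeR's threshold, while 11 reached 0.05 before adjustment and DESeq2 called 3 of 32. With the haemoglobin-led cluster added, an alternative chosen after seeing the data, 5 of 33 passed edgeR's threshold, all higher in Ctcf-cKO. With edgeR the count was 4 on removing WT replicate 1 and 7 on removing WT replicate 2, 1 and 8 on removing Ctcf-cKO replicates 1 and 3 in turn, and 5 with no filter on low genes. The medians there were 0.68 for 6 aldehyde dehydrogenases, 0.75 for 4 binding proteins, 2.71 for 10 genes of desaturation and elongation, 1.62 for 4 aldo-keto reductases and 0.23 for 3 genes of the urea cycle and arginine, against -0.04 over all genes. FADS1 stood at 4.16, 0, 176 and 49.4 CPM (adjusted p = 0.194), ACSBG1 at 0, 8.49, 341 and 86.4 CPM (adjusted p = 0.2) and GATM at 5.55, 16.0, 121 and 185 CPM (adjusted p = 0.194). In barcodes under 200 genes 3 of 9 aldehyde dehydrogenases, 2 of 4 binding proteins, 4 of 10 genes of desaturation and elongation, 3 of 6 aldo-keto reductases and 1 of 3 genes of the urea cycle and arginine rose, and none of these fell, where 5.84% of all 7879 genes were called higher. Their medians were 2.17, 1.04, 2.65, 2.17 and 1.61, against 0.07 over all genes, and those of the desaturation and aldo-keto lists were 1.93 and 1.97 with genes at 0 in both WT mice set to their lower bound. The calls of the first pair of lists dropped to 1 and 0 without either Ctcf-cKO mouse, and the aldehyde dehydrogenases and aldo-keto reductases called were 2 each without WT replicate 2, as were the aldo-keto reductases without either Ctcf-cKO mouse. ACSBG1 rose there from 0 and 25.4 CPM to 353 and 311 CPM (4.23 ± 0.50, adjusted p = 3.85e-06).

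**Figure D4:**
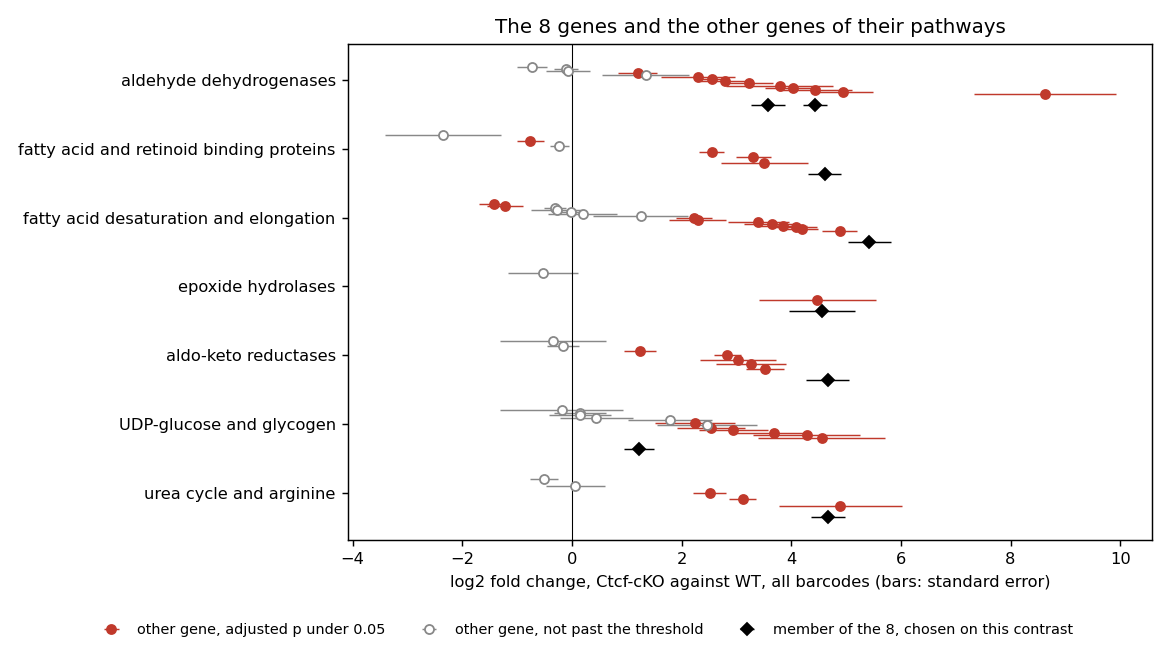
Log2 fold change between Ctcf-cKO and WT in all barcodes, with standard errors, of the 8 genes (diamonds, chosen on this contrast) and of the other tested genes of 7 pathway lists (circles, filled where the adjusted p was under 0.05). FADS2 lies at 5.42 and UGP2 at 1.23, and 10 of 14 other aldehyde dehydrogenases are filled to the right of 0, where the point farthest right, ALDH5A1, is a fitted value against 0 WT counts and no bound.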

How the data were processed

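The deposited files hold, per the labels and the file contents, gene by barcode matrices of whole-number counts that the authors made from ddSEQ 3′ libraries, with reads aligned to GRCm38. The counting tool, its use of strand and the merging of molecular identifiers are not given in the sources used here. The study removes barcodes with fewer than 200 genes, and they were kept here as a compartment of their own. Cells had 200 to 7000 genes, at most 10% mitochondrial counts and a count of 3 times the library's plateau or more. Doublets called by Scrublet (scanpy 1.11.5) numbered 1, 21, 12 and 34 and were kept. Cells were clustered with Seurat 5.3.0 in R 4.3.3, without the 8 genes and with Harmony's algorithm over mice, and named from marker lists. A cluster took a name with at least 3 markers and at least 33% of a list higher, limits that were set after the clusters were seen. A marker counted as higher at a log2 difference of at least 0.5 from the other cells and in at least 10% of the cluster. A name was withheld where another list had more of the 10 leading genes. This left the haemoglobin-led cluster unnamed and out of the germ-like cells.

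Counts were summed per mouse, and edgeR 4.0.16 (quasi-likelihood test, TMM, Benjamini-Hochberg adjustment, threshold 0.05) was fitted to all genes that passed its filter on low counts. The 2 mice per genotype were the replicates. The method was tested on simulated data in which 200 genes were changed by 2 on the log2 scale, as many up as down. All genes were drawn with 1 common spread. It found 136 in sums with the totals of all barcodes, 44 in germ-like cells and 67 in barcodes under 200 genes. False calls numbered 8, 1 and 0. The real sums of all barcodes had 2673 genes called higher and 1477 lower, so these rates need not hold there. Alternatives were DESeq2 1.42.0, other scalings, filters and clusterings, and leaving out each mouse.

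The 8 genes and all lists were chosen with earlier results of these data known. Beyond the 8, the text names up to 3 genes per pathway list with the largest change past the threshold, the 3 most counted Leydig markers, the 5 genes most alike in profile among those with at least 100 counts, and the near copy of Aldh1a1. One gene that the rule names is not reported here. Genes outside this rule are said to be so where they are named, apart from Ctcf and markers given as checks. Ratios on 1 to 3 WT counts have exact 95% counting intervals, and a count of 0 was bounded by 3 counts. Gene positions are from GENCODE M21.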

Additional observations from a re-analysis of the deposited data

How the results depend on the processing

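Every log2 fold change of the 8 genes kept its direction in all 248 alternative values, which is fixed in part by the choice of the genes. Of these 213 lay within 1 SE of the value given and 35 did not, with ranges of 1.06 to 6.82 in all barcodes, 1.41 to 9.98 in germ-like cells and 0.99 to 9.26 in barcodes under 200 genes. The highest are fitted against a WT mouse with 0 counts and are no bound. Of 88 alternative mean levels of the Ctcf-cKO mice 56 lay within 1 SD and 32 did not. The count of 4150 genes called in all barcodes ranged from 1710 to 4444 when a mouse was left out, and removing Ctcf-cKO replicate 1 gave the lowest and removing Ctcf-cKO replicate 3 gave 1989. The 2 calls in germ-like cells became 73 with DESeq2, 10 with library totals alone, 144 with no filter, 10 without batch correction, 6 at the higher resolution, and 0 with at least 500 genes per cell or without doublets, where edgeR gave 414 and 377 genes at an unadjusted p under 0.05. They became 9 with counts divided by 4 and 125 with the haemoglobin-led cluster, alternatives that were chosen after seeing the data, and 13 to 256 when a mouse was left out. The 506 calls in barcodes under 200 genes became 183 with DESeq2, 1223 over all barcodes under the count limit, and 132 to 1344 when a mouse was left out (132 and 164 on removing Ctcf-cKO replicates 1 and 3, 770 and 1344 on removing WT replicates 1 and 2). Scaling by library totals split them into 277 higher and 72 lower, against 460 and 46, and moved the median of all genes from 0.07 to -0.16. The cause of these changes was not tested. A genotype left with 1 mouse was assumed to vary like the other. No paired analysis was possible because the genotypes share only replicate number 1. The Leydig-like values of WT replicate 1 rest on 6 cells with 34047 counts, and its barcodes under 200 genes on 104983 counts.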
